A study of Mus musculus with 6 samples.

Results

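Genes of the SLIT, ROBO, netrin and UNC5 guidance system were examined in blood and lymphatic endothelial cells of the mouse small intestine. The set held 10 genes: the ligands Slit2, Slit3, Ntn1 and Ntn4, and the receptors Robo1, Robo2, Robo4, Unc5b, Unc5c and Neo1. They were found by matching the RefSeq accession of each array probe to these symbols, which gave 16 of the 56605 probes other than controls, and 10 of the 22911 genes that could be named. Vascular endothelial cells (VECs, CD45-CD31+CD90-) and lymphatic endothelial cells (LECs, CD45-CD31+CD90+) were sorted from small intestines of female mice, with no treatment in the labels. The 3 VEC samples are numbered 2, 3 and 4 and the 3 LEC samples 6, 7 and 8, and each was hybridized to its own one-color Agilent array. The study worked with B6D2F1 and C57BL/6 mice, but the sources used here tie neither strain, nor an age, to the arrays and do not say whether different samples were taken from different mice, so the p-values measure only the spread between these samples, which may be technical. For the LEC samples, GEO's descriptions say VECs but the titles and source names say LECs, and the grouping was made by the latter.

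SLIT proteins are large secreted ligands best known for turning axons away from the midline of the nervous system, and they act through ROBO receptors. Netrins are laminin-related secreted proteins that attract through DCC and neogenin and repel through the UNC5 receptors. Blood and lymphatic vessels use the same cues during growth and for barrier control: ROBO4 is largely restricted to endothelium, UNC5B is expressed by endothelial tip cells and can bind both netrin-1 and ROBO4, and neogenin also binds the RGM proteins and takes part in BMP signaling.

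Promoters are printed here for 4 of the genes that passed the test: Slit2, Slit3 and Robo4, higher in VECs, and Unc5b, higher in LECs. Ligand and receptor genes called in either direction can thus be set side by side. Each promoter is the 250 bases before the gene's start in RefSeq (build GRCm38.p6), printed 5′ to 3′ on the strand of the gene. Capitals mark GGAA or TTCC (the core bound by ETS factors, the family that includes endothelial regulators), GGGCGG or CCGCCC (the GC box) and TATAAA or TTTATA (the TATA box), each searched on both strands, and no base lay under more than 1 motif kind. The first window is chr5:47982905-47983154 (plus strand), the next is chr11:35121206-35121455 (plus strand), then chr9:37401722-37401971 (plus strand) and chr10:60831582-60831831 (minus strand).
Slit2: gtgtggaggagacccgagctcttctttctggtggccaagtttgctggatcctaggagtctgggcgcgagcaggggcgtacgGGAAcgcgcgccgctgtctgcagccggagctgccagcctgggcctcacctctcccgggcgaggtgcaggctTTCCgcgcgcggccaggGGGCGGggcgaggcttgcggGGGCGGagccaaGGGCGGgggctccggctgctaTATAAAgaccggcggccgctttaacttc
Slit3: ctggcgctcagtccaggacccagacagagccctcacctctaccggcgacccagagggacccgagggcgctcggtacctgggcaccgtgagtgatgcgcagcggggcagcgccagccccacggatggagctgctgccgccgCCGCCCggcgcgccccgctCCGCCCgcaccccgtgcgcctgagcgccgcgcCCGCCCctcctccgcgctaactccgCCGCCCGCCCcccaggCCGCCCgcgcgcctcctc
Robo4: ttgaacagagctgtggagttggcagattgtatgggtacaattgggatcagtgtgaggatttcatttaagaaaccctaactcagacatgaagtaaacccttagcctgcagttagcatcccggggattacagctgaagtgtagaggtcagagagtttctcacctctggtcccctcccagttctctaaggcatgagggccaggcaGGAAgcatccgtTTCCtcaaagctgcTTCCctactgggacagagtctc
Unc5b: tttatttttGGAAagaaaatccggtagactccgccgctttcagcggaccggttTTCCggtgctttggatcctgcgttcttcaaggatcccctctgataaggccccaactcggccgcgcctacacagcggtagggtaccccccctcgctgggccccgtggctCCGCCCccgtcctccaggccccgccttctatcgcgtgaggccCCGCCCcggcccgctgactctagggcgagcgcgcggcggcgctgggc
The Slit3 window held 6 GC boxes and no GGAA, with a GC content of 78.8%. The Slit2 window held 3 GC boxes, 2 GGAA and 1 TATA box starting 28 bases before the start. The Robo4 window differed from both: it had a GC content of 49.6%, 3 GGAA and no GC box. The Unc5b window held 2 GGAA and 2 GC boxes. Among 32851 promoter windows of the same length, 93.4% held at least 1 GGAA and 54.7% at least 3, 32.7% held at least 1 GC box, 8.47% at least 3 and 0.886% at least 6, and 12.4% held a TATA box. The median GC content of these windows was 52.4%. These matches describe letters only. A window was found for 9 of the 10 genes, the exception being Ntn1. That of Neo1, which also passed the test, is not printed.

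The signal of a probe is its scanner intensity after the scanner software's background subtraction, and a probe was called well above background by that software. Between 54.6% and 62.7% of the probes were well above background on an array, the lowest such signal was 12.1 to 25.1 units, and no spot was saturated. Per array, the 75th percentile of signals lay between 333 and 375 for VECs and between 381 and 441 for LECs. For the comparison, log2 signals were expressed relative to this percentile of their own array, and LEC was compared with VEC with limma over 33776 probes, Benjamini-Hochberg adjusted p under 0.05 being the threshold. A gene was represented by its brightest tested probe. Without scaling, the median difference of all probes moved up by 0.23 (log2). The marker genes followed the titles: all 7 lymphatic markers, such as Lyve1 and Prox1, were higher in LECs, with a summed scaled signal of 1297 to 1335 against 2.71 to 3.37 in VECs. All 7 blood vascular markers, such as Flt1 and Plvap, were lower, at 142 to 150.4 against 1550 to 1706.

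VECs and LECs differed in the levels of most of the tested ligand and receptor genes. Ntn1 was 52.0-fold higher in LECs and Unc5b 1.73-fold higher, whereas Slit3, Slit2, Neo1 and Robo4 were higher in VECs, by at least 18.7-fold, at least 3.96-fold, 14.3-fold and 1.77-fold. The lower bounds of Slit3 and Slit2 hold only for the scanner software's background subtraction with no offset added. Ntn4 was measured in both and did not pass the test, and Robo1, Robo2 and Unc5c were not tested because no probe of theirs was well above background throughout a group. Thus 2 of the 7 tested genes were called higher in LECs and 4 lower. Over all 14971 tested genes 66.9% passed, 34.9% higher and 32.0% lower (over all tested probes 64.0%, 31.2% higher and 32.8% lower), so that passing this threshold is common between these cells. Slit2 and Slit3 entered the test only through their VEC signals, and of the 5 genes with signal above background in every sample 4 passed, against 66.3% of all such genes. The scaled values of the groups did not overlap for 2 genes higher in LECs and 4 lower, and neither did those of 39.1% (higher) and 35.9% (lower) of all tested genes. The median log2 difference of the 7 genes was -0.82, beside 0.02 over all tested genes, but it includes Slit2 and Slit3. The 5 genes with signal above background in every sample went both ways. Their differences were 5.70 for Ntn1, 0.79 for Unc5b, 0.18 for Ntn4, -0.82 for Robo4 and -3.84 for Neo1. A fold above 5, together with a mean signal of more than 100 in whichever group was brighter, was found for Ntn1 toward LECs and for Slit3 and Neo1 toward VECs; 8.04% of all tested genes met this rule, 3.83% toward LECs and 4.21% toward VECs. In such sorted bulk samples, fewer cells of a type and less RNA per cell cannot be told apart.

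**Figure D1:**
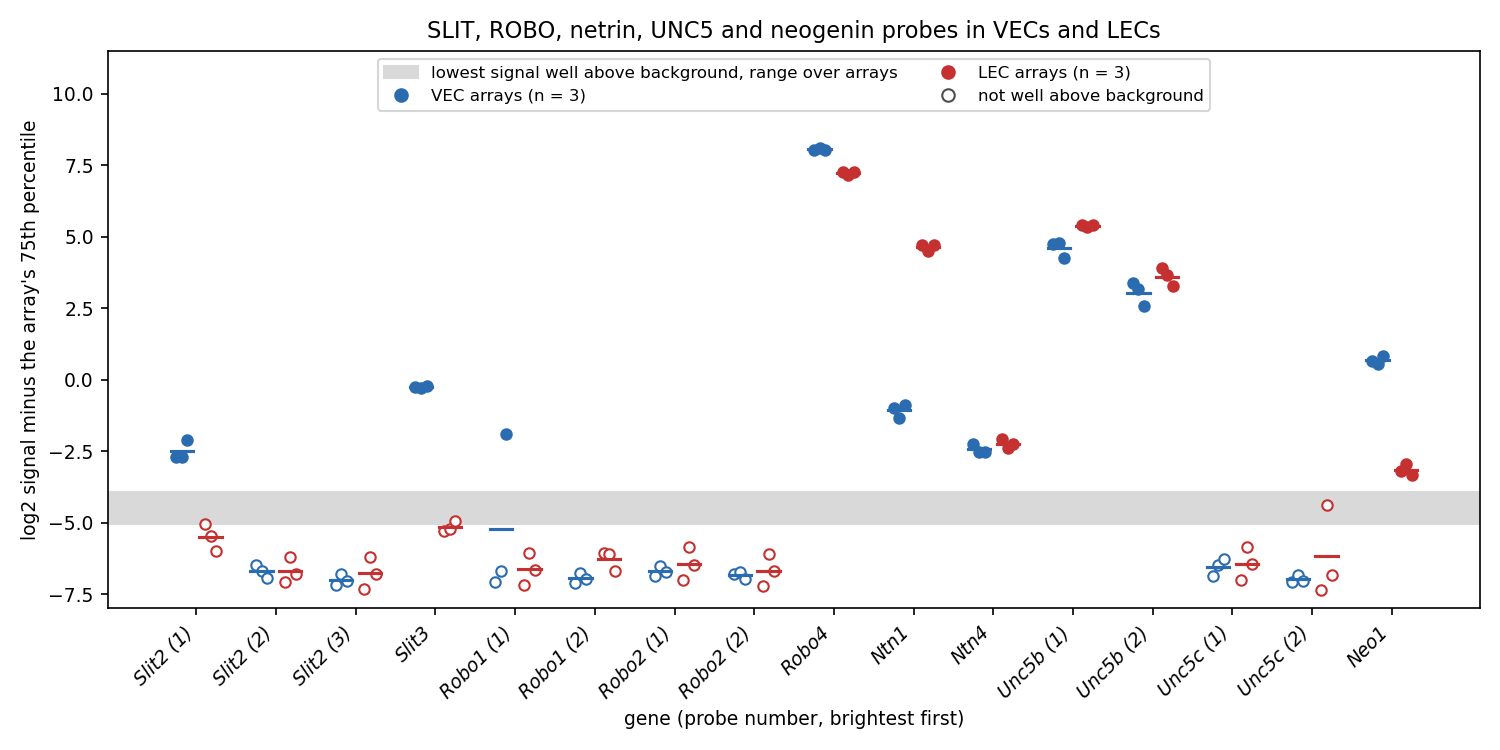
Log2 signal relative to the 75th percentile of the array (vertical axis) of all 16 probes of the 10 genes (horizontal axis), with a point per array (3 VEC, 3 LEC), a line at the group mean, open points for probes at background and a grey band for the range of the lowest signal well above background. Ntn1 lies higher in LECs, Slit2 (probe 1), Slit3 and Neo1 lie higher in VECs, and the probes of Robo2 and Unc5c have open points only.

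Slit3 and Slit2 were well above background in VECs alone. The signal of Slit3, whose protein is a vascular as well as a neural guidance ligand, was 301, 270 and 320 in VEC samples and 11.0, 10.2 and 14.3 in LEC samples. The VEC values lay close together, and no LEC value was well above background. Slit3 thus entered the test only through its VEC signals, so groups set apart and a low p-value are no separate support. The scaled log2 signal was -0.27 ± 0.035 in VECs and -5.15 ± 0.18 in LECs (SD, n = 3 each), and the fold in favor of VECs was at least 18.7 against the lowest signal well above background (limma adjusted p = 7.6e-07).

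The brightest Slit2 probe gave signals of 55.6, 51.4 and 86.4 in VEC samples, the last being VEC 4, and of 12.9, 8.49 and 6.98 in LEC samples. Again no LEC value was well above background and the groups did not overlap. Slit2 also entered the test only through its VEC signals, so the lack of overlap and a low p-value are no separate support. The means were -2.50 ± 0.33 in VECs and -5.51 ± 0.46 in LECs (SD, n = 3 each), a fold of at least 3.96 in favor of VECs (limma adjusted p = 0.0002). The other 2 Slit2 probes read 2.49 to 4.06 on VEC and 2.70 to 5.16 on LEC arrays and were not above background on any array, so the call rests on 1 of 3 probes. Under normexp background correction, which added an offset of 50 units to every signal, the differences shrank to -1.03 for Slit2 and -2.36 for Slit3. Both were smaller in size than the lower bounds given, and both calls held.

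Among the ROBO receptors, Robo4 was bright in both populations and moderately higher in VECs. Robo4, the endothelial member of the family, gave 94143, 91668 and 97235 in VEC samples and 65627, 54760 and 67558 in LEC samples. Every VEC value exceeded every LEC value. The scaled means were 8.05 ± 0.050 and 7.23 ± 0.050 (SD, n = 3 each), a difference of -0.82 with a standard error of 0.064 (1.77-fold, limma adjusted p = 9.8e-05).

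Robo1 and Robo2, the broadly expressed neural receptors of SLITs, gave almost no signal. Of the 2 Robo1 probes, one read 2.69, 3.18 and 99.8 in VEC samples and 2.95, 5.66 and 4.40 in LEC samples. Only the value of VEC 4 was well above background. The other Robo1 probe read 2.62 to 6.45 and was at background on all arrays, VEC 4 included. Both Robo2 probes read 2.87 to 6.52, at background on all 6 arrays. A signal at background on these probes does not mean that the transcripts are absent.

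Ntn1 showed the largest difference among the 5 genes measured in both populations, while Slit3 has only a lower bound. Ntn1, which encodes netrin-1, gave 183, 131 and 205 in VEC samples and 11150, 8529 and 11632 in LEC samples. It was thus measurable in all samples, and every LEC array was far above every VEC array. The scaled means were 4.63 ± 0.13 in LECs and -1.07 ± 0.24 in VECs (SD, n = 3 each), a difference of 5.70 with a standard error of 0.14 (52.0-fold, limma adjusted p = 1.2e-06), which ranked 46 from the LEC end among the 13303 genes well above background in every sample.

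Ntn4, a netrin of basement membranes that binds laminin, gave 76.2, 57.9 and 65.6 in VEC samples and 102, 72.6 and 92.2 in LEC samples. The scaled groups lay close together: the difference was 0.18 with a 95% interval of -0.10 to 0.47, and the limma adjusted p was 0.21. Across the alternative settings the difference ran from 0.05 to 0.41 without passing the threshold.

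Of the netrin receptors, Neo1 and Unc5b differed in opposite directions. Neo1, which encodes neogenin, gave 571, 490 and 659 in VEC samples and 47.4, 49.0 and 43.5 in LEC samples. All 6 values were well above background, and the groups were far apart. The scaled means were 0.68 ± 0.13 in VECs and -3.16 ± 0.19 in LECs (SD, n = 3 each), a difference of -3.84 with a standard error of 0.12 (14.3-fold, limma adjusted p = 2.8e-06) that ranked 180 from the VEC end among those 13303 genes. Normexp background correction with its offset of 50 units gave -2.67.

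The brighter Unc5b probe gave 9606, 9171 and 7195 in VEC samples and 18242, 15213 and 18845 in LEC samples. LEC values were higher throughout, with VEC 4 the lowest. The scaled means were 4.59 ± 0.29 in VECs and 5.38 ± 0.052 in LECs (SD, n = 3 each), a difference of 0.79 with a 95% interval of 0.42 to 1.15 (1.73-fold, limma adjusted p = 0.0044). The other Unc5b probe gave 3730, 2993 and 2228 against 6407, 4747 and 4261, and here the scaled values overlapped, with a difference of 0.57 and a limma adjusted p of 0.093. The mean of both probes differed by 0.68 (limma adjusted p = 0.021). Neither Unc5c probe was well above background on any array; their highest reading was 18.4, on LEC 7.

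**Figure D2:**
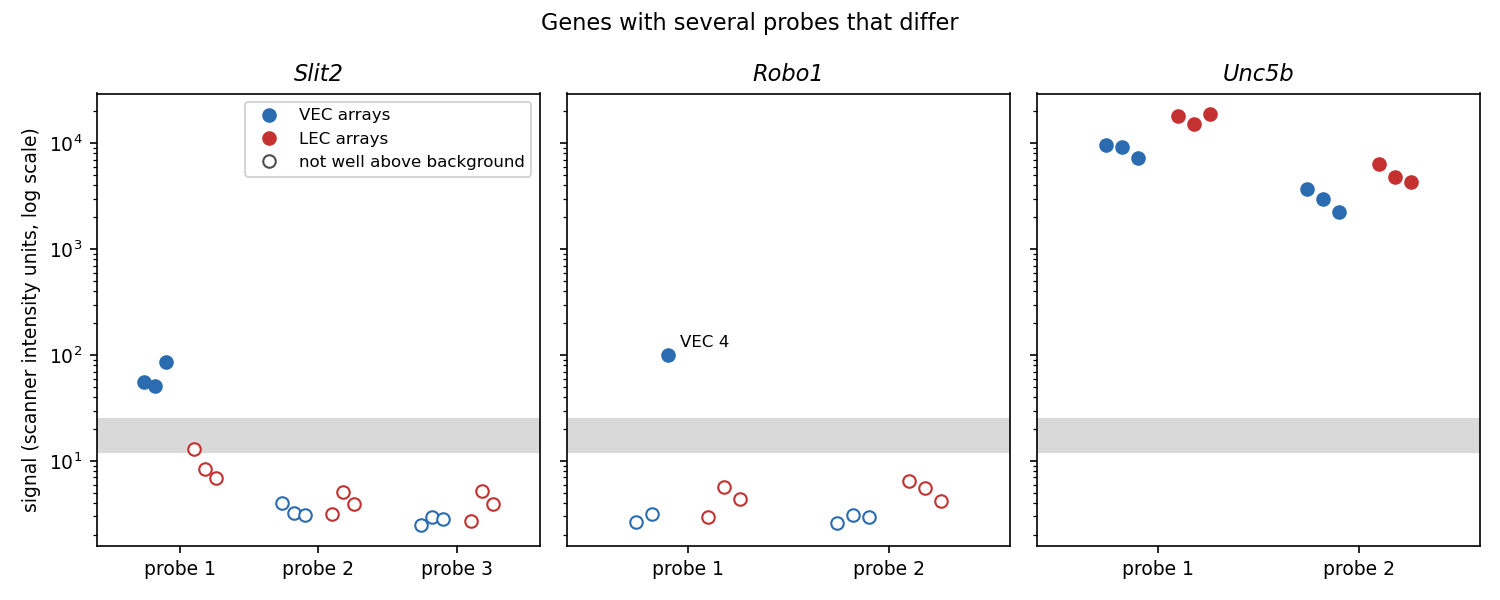
Signal in scanner intensity units on a log axis (vertical) for each probe (horizontal) of Slit2, Robo1 and Unc5b, with a point per VEC or LEC array, open points where the probe was not well above background and a grey band for the range of the lowest signal well above background. For Slit2 and Robo1 only probe 1 rises above the band, for Robo1 on VEC 4 alone, while both Unc5b probes are bright in all samples.

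Of 12 further genes of these families, 5 were tested, of which Ntn3 and Dcc were called higher in LECs and Robo3 and Unc5a lower. Over all tested genes 34.9% were called higher and 32.0% lower. Robo3, a divergent ROBO that modulates SLIT responses in crossing axons, gave 2129, 2077 and 2015 in VEC samples and 365, 366 and 452 in LEC samples, a difference of -2.63 with a standard error of 0.10 (6.18-fold, limma adjusted p = 5.6e-06). Its VEC values were within a narrow range and far from those of LECs. Unc5a, another netrin receptor, gave 204, 198 and 191 against 80.1, 89.1 and 90.0 (2.68-fold higher in VECs, limma adjusted p = 9.9e-05).

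Ntn3, a netrin close to netrin-1, gave 21.2, 13.2 and 33.5 in VEC samples, of which 2 were well above background, and 104, 76.5 and 199.7 in LEC samples. LECs exceeded VECs by at least 4.61-fold (limma adjusted p = 0.0037), though Ntn3 entered the test only through its LEC signal. A second Ntn3 probe read 3.74 to 4.69 in VECs and 12.7 to 21.6 in LECs. That second probe was not tested, and on LEC 7 the lowest signal well above background was 25.1. Under normexp with its offset the log2 difference of the first probe was 0.93, smaller than the 4.61-fold bound, and the call held. Slit1 gave 40.0, 24.8 and 28.5 against 45.7, 33.2 and 42.4, a difference of 0.17 with a 95% interval of -0.26 to 0.59 that did not pass (limma adjusted p = 0.43); it passed only when VEC 2 was left out, where the difference was 0.35 (limma adjusted p = 0.041, range over the alternatives 0.041 to 0.77).

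The brightest probe of Dcc, the classical attractive netrin receptor, gave 75620, 62454 and 74699 in VEC samples and 101919, 101811 and 97539 in LEC samples, a difference of 0.28 (limma adjusted p = 0.038). Its other 3 probes read 2.74 to 7.91 and were not above background on any array. The call was lost under 8 of 19 alternatives, among them leaving out VEC 2, VEC 3, VEC 4, LEC 6 or LEC 7, with limma adjusted p from 0.0072 to 0.19 over all of them, and the source of that 1 bright probe was not tested. Of the remaining 7 genes, Dscam, Dscaml1, Ntng1, Ntng2, Unc5cl and Unc5d had no probe above background on any array, and Ntn5 was not tested.

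Among 26 other ligands and partners of the pathway, such as heparan sulfate proteoglycans, FLRT proteins, latrophilins, integrins and BMPs, 21 were tested, 7 were called higher in LECs, 11 lower and 3 did not pass, beside 34.9% higher and 32.0% lower over all tested genes. The median log2 difference was -0.28. Flrt3, which encodes a membrane protein that binds UNC5 and ROBO receptors, gave 64.4, 59.7 and 63.8 in VEC samples and 3465, 2891 and 3659 in LEC samples, a difference of 5.50 with a standard error of 0.065 (45.4-fold, limma adjusted p = 4.7e-07). The next largest toward LECs were proteoglycans: Gpc1, a glypican that binds SLIT2, was higher by 2.81 on the log2 scale, and the syndecans Sdc4 and Sdc1 were 4.26-fold and 4.21-fold higher. Toward VECs, the netrin-binding integrin subunits Itgb4 and Itga3 were 13.5-fold and 9.89-fold higher. Itgb4 gave 8432, 7815 and 9531 against 693, 830 and 718, with no overlap. A second Itga3 probe differed by -1.14, less than the -3.31 of the first. Adgrl2, a latrophilin that binds FLRT proteins, was 7.99-fold and Bmp4, a growth factor, 6.98-fold higher in VECs. Bmp2 differed by -0.03 (95% interval -0.27 to 0.20) and Itgb1 by 0.08 (-0.10 to 0.25), and neither passed. Under normexp with its offset the log2 differences shrank to 4.64 for Flrt3, 1.78 for Gpc1 and 1.06 for Sdc4. Those of Itga3 and Adgrl2 became -2.42 and -2.36, and the calls held.

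Among 46 intracellular effectors, 43 were tested, 12 were called higher in LECs, 19 lower and 12 did not pass. Over all tested genes 66.9% were called, 34.9% higher and 32.0% lower. The median log2 difference was -0.15. Srgap3, a GTPase-activating protein of the group that binds ROBO receptors, gave 15.7, 13.1 and 19.5 in VEC samples and 1253, 1018 and 1413 in LEC samples. LECs exceeded VECs by at least 63.7-fold (limma adjusted p = 7.6e-07), where 2 of 3 VEC values were well above background. Dapk1, a death-associated kinase that UNC5 receptors engage, gave 13.9, 12.1 and 17.0 against 762, 1356 and 1197, at least 61.2-fold (limma adjusted p = 8.9e-06). The kinase Src was at least 2.50-fold higher in LECs on 1 probe, with its other probe at background, and the focal adhesion adaptor Pxn 2.40-fold. Srgap3, Dapk1 and Src entered the test only through their LEC signals. Testing only probes well above background on all arrays left 9 effectors called higher in LECs and 19 lower. Of all 28853 such probes, 9518 were called higher and 9076 lower. Under normexp with its offset the log2 differences were 3.73 for Srgap3, 3.86 for Dapk1 and 0.31 for Src. These were smaller than the lower bounds given, and the calls held.

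The 4 effectors with the largest differences toward VECs were Myo10, Enah, Siah2 and Vasp, of which Siah2 is no actin regulator. Myo10, a filopodial myosin that can carry DCC and neogenin, gave 2704, 2477 and 2786 in VEC samples and 143, 113 and 125 in LEC samples. The difference was -4.61 with a standard error of 0.077 (24.5-fold, limma adjusted p = 5.2e-07), and a second probe gave -4.45. Enah, an Ena/VASP actin regulator downstream of ROBO and netrin receptors, was 13.4-fold higher in VECs, and its relative Vasp 2.39-fold. Siah2, a ubiquitin ligase that targets DCC, was 4.79-fold higher in VECs. Under normexp with its offset the log2 differences were -3.97 for Myo10 and -2.68 for Enah, and the calls held. The GTPase Rac1 differed by -0.04 (95% interval -0.20 to 0.12) and the kinase Pak2 by 0.02 (-0.15 to 0.20), and neither passed.

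**Figure D3:**
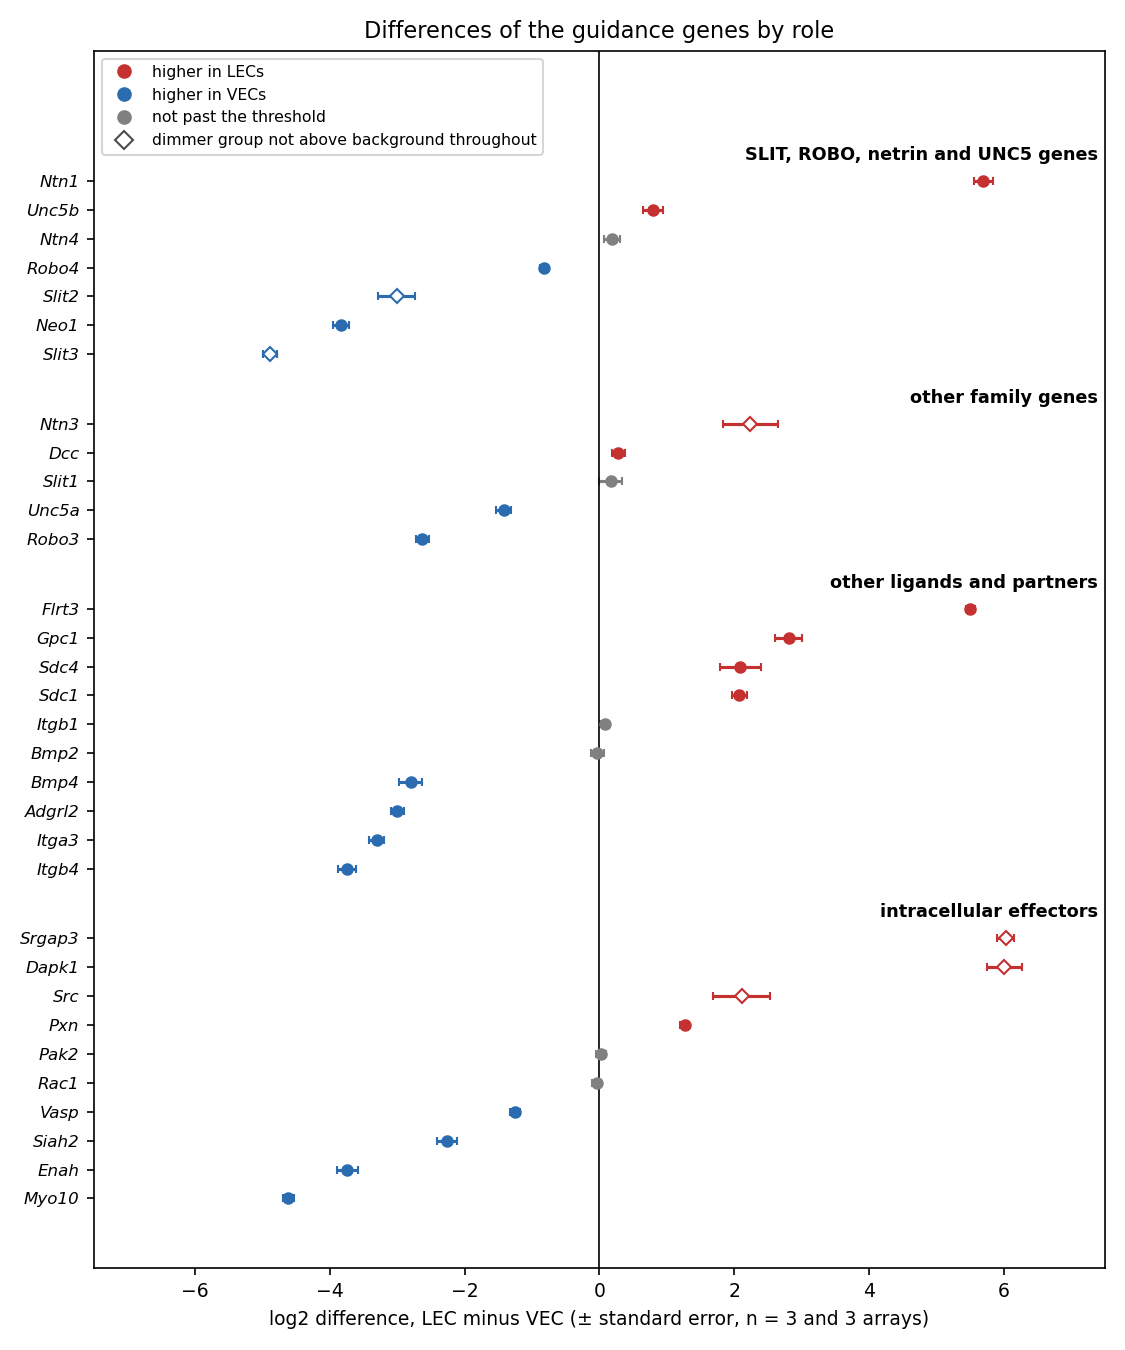
Log2 difference, LEC minus VEC (horizontal axis), with its standard error from limma (3 arrays per group), for the named genes grouped by role (vertical axis), red where higher in LECs, blue where higher in VECs, grey where the threshold was not passed and open diamonds where the dimmer group was not well above background on all its arrays. Among the filled symbols, Ntn1 and Flrt3 lie furthest toward LECs, at 5.70 and 5.50, and Myo10 and Neo1 furthest toward VECs, at -4.61 and -3.84; the places of the open diamonds rest on readings near background.

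Markers of other cells that a gut preparation may hold also moved, as did most tested genes, of which 34.9% were called higher and 32.0% lower. Of 7 enteric neuron and glia markers all were tested, and Gfap, S100b and Sox10, which mark glia, were called higher in LECs (S100b 15.5-fold, Sox10 4.25-fold), while Ret, Snap25 and Uchl1 were lower. Their summed scaled signal was 66.7 to 69.4 in VECs and 47.6 to 49.5 in LECs. Of 5 tested fibroblast markers 3 were higher, Dcn by 6.33-fold, and 1 was lower, with sums of 3.53 to 4.14 in VECs and 2.55 to 3.31 in LECs, and Pdgfra, Dpt and Lum were not tested. Of 8 smooth muscle and pericyte markers 3 were lower and none higher (29.1 to 36.5 against 21.7 to 25.8). Of 7 tested hematopoietic markers 3 were higher and 3 lower (79.1 to 84.8 against 68.9 to 74.0), and Ptprc, the gene of CD45, was not tested. Of 5 tested epithelial markers 2 were higher and 1 lower (3.76 to 6.24, highest on VEC 4, against 7.10 to 8.35), and Krt20 was at background on all arrays. Of the 6 pan-endothelial markers 5 were lower in LECs, with sums of 252 to 286 in VECs and 153 to 172 in LECs. The part of these other cells in the values of the guidance genes was not tested.

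All arrays shared 1 slide, on which VEC 2, 3 and 4 and LEC 6 lay in one row and LEC 7 and 8 in the other. With the row as a block, which rests on LEC 6 against the VEC arrays, the differences were 5.76 for Ntn1, 0.81 for Unc5b, -5.02 for Slit3, -2.55 for Slit2, -3.86 for Neo1 and -0.80 for Robo4, and all 6 calls held, the highest limma adjusted p being 0.037 for Unc5b.

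**Figure D4:**
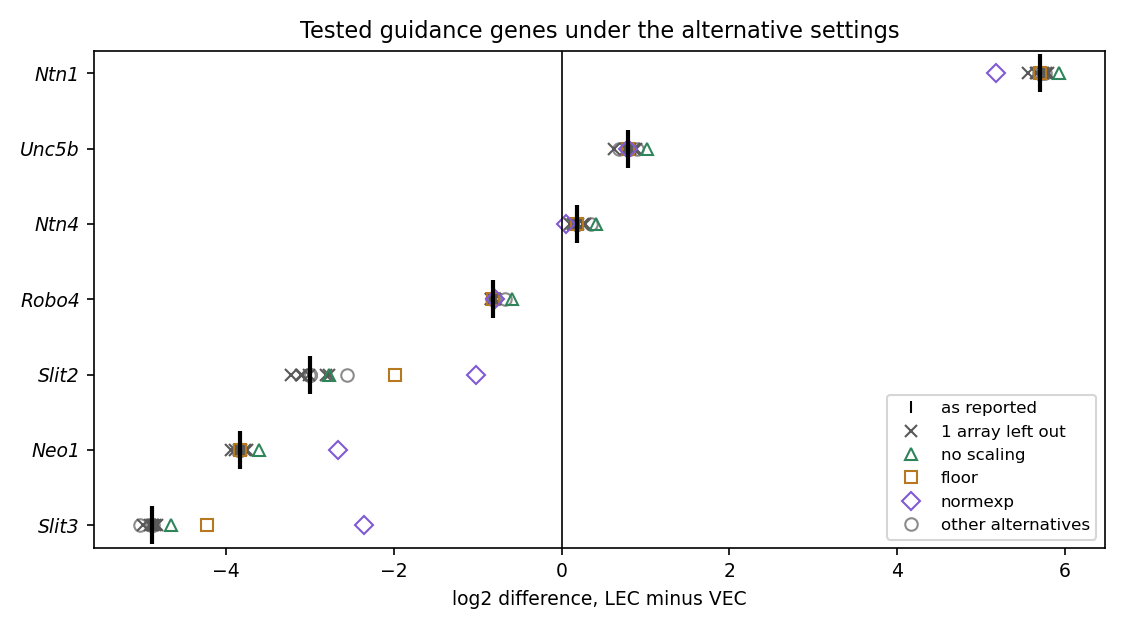
Log2 difference, LEC minus VEC (horizontal axis), of the 7 tested guidance genes (vertical axis) as reported (vertical bar) and under the alternative settings (symbols). No symbol of a gene that passed crosses 0, and normexp moves Slit2 to -1.03, Slit3 to -2.36 and Neo1 to -2.67.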

How the data were processed

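Total RNA of at most 10000 sorted cells per sample was labeled with Cy3 after amplification and hybridized to 1 array per sample. The deposited intensity of each spot is the background-subtracted signal of Agilent Feature Extraction 12.0.3.1 (per the file headers), not scaled between arrays. The authors also deposited a log2 table of the same arrays, which equals the log2 intensity minus 1 constant per array (within 0.01 for at least 99.9% of probes), and served as an alternative. Gene Spring GX with ANOVA is the analysis given in the study's methods.

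Outlier spots (97 to 122 per array) were dropped and replicate spots averaged. On the log2 scale, each array was then set relative to its 75th percentile. A probe entered the test if 1 group or both had it well above background in each of 3 samples. The test was limma 3.58.1 run under R 4.3.3 (lmFit, then eBayes, two-sided, Benjamini-Hochberg adjusted over all 33776 probes, threshold 0.05). For each gene, the tested probe with the highest mean of all 6 arrays stood for it. Where the dimmer group was not well above background on all its arrays, the fold is a lower bound against the lowest signal well above background. This bound holds only for the scanner software's background subtraction with no offset added. Normexp, with its offset of 50 units, gave smaller differences than the bounds of Slit2, Slit3, Ntn3, Srgap3, Dapk1 and Src. An offset of this size by itself shrinks the differences of dim probes, and normexp without it was not run. The LEC against VEC test was tried on simulated data of 33774 probes, with 50 probes for each size of change. It recovered 50 probes at 100-fold, 45 at 5-fold, 34 at 2-fold and 19 at 1.41-fold, and 9 of its 157 calls were false. No other probes were changed there, whereas 64.0% of the tested probes passed in the data. Recovery in the real comparison may therefore differ. The number of arrays, 3 per group, limits the precision.

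Probes were named through RefSeq accessions of the GRCm38.p6 annotation (58.3% named), used for names and promoter windows only. The genes and lists were chosen with earlier results of these data known, so counts over them are descriptions. Named were all 10 genes with every probe, every tested gene of the same families, and of the partner and effector lists up to 4 genes per direction with the largest differences past the threshold and up to 2 with the smallest that did not pass. Alternatives were normexp background correction, other scalings, a floor, other filters on dim probes, no removal of outlier spots, an intensity trend in the variance, a one-way test, the mean of probes, the deposited table, the slide row as a block and each array left out. Experiments other than the arrays were not analysed here. An item withheld for evaluation was left out of a marker list and is not reported here.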

Additional observations from a re-analysis of the deposited data

How the results depend on the processing

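By the probe that stood for each, or the mean of its probes, the 7 tested guidance genes kept their direction under every alternative that tested them. They also kept their side of the threshold. The log2 differences ran from 5.17 to 5.93 for Ntn1, 0.62 to 1.01 for Unc5b, -0.84 to -0.60 for Robo4, -3.94 to -2.67 for Neo1, -3.23 to -1.03 for Slit2 and -5.02 to -2.36 for Slit3. Of 602 values of 32 tested genes under the alternatives, 585 kept direction and side, 8 fell below the threshold, all for Dcc, 1 rose past it, for Slit1 without VEC 2, and 8 changed sign, all in genes that passed neither as reported nor there. These were Slit1 at -0.052 under normexp, Rac1 at 0.041 under quantile normalization, 0.19 without scaling and 0.025 with a block for slide row, Bmp2 at 0.19 without scaling and 0.052 without VEC 2, and Pak2 at -0.0075 without VEC 2 and -0.0039 without VEC 3. With single arrays left out, Bmp2 ran from -0.088 to 0.052 and Pak2 from -0.0075 to 0.079. Testing only probes well above background on all arrays left 2 of the guidance genes called lower in LECs in place of 4, since Slit2 and Slit3 then were not tested. Without scaling between arrays, 6916 of all tested probes were lower in LECs in place of 11066. The number of other family genes called higher in LECs was 1 in place of 2 with no filter, with the filter on all arrays, with the one-way test and with a block for slide row, and 1 to 2 when single arrays were left out. With the floor, the differences were -1.99 for Slit2 and -4.22 for Slit3. The second Unc5b probe, not past the threshold as reported (limma adjusted p = 0.093), passed under normexp (0.044) and without scaling (0.017). No paired analysis was possible because the VEC and LEC samples share no replicate numbers. Signals near background limit Slit2 and Slit3 in LECs, and Ntn3, Srgap3, Dapk1 and Src in VECs. They limit Robo1, Robo2 and Unc5c in both groups, apart from 1 Robo1 probe on VEC 4.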
